A study of Mus musculus with 15 samples.

Results

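The comparison described here sets crushed optic nerves of mice given AAV-CNTF against crushed optic nerves of mice given AAV-null, across every gene that could be tested. All animals were adult C57BL/6J mice with no engineered allele named. Each animal had received an injection into the vitreous of the eye, of adeno-associated virus serotype 2 (AAV2, a gene delivery vector), either one that makes a secreted form of ciliary neurotrophic factor (CNTF) or a null vector that serves as the control. The nerve was crushed 2 weeks later and collected 7 days after the crush, so both groups compared carry the vector, the injection and the injury, and differ in the CNTF insert. Libraries were assigned by their titles, 5 AAV-CNTF and 5 AAV-null, each numbered 2 to 6, or 10 of the 15 libraries of the series. The other 5 came from nerves exposed but not crushed, in mice given AAV-null (sham). They entered the fit to share the estimate of spread, and with it the filter on low counts and the normalization. Sham levels are also given beside those of the crush groups for some genes. Of 14237 genes listed, 14194 passed the filter on low counts and were tested. Not given in the sources used here are the promoter that drives the insert and the times of the sham operation. The vector was put into the eye, while the RNA came from the nerve, which holds the axons of retinal ganglion cells but not their cell bodies.

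CNTF is a cytokine of the interleukin-6 family. It binds the receptor CNTFRα (gene Cntfr) together with the signalling subunits gp130 (Il6st) and LIFR (Lifr), which activate Janus kinases and the transcription factor STAT3. Active STAT3 binds DNA and switches on response genes, among them Socs3, a feedback inhibitor of the receptor. Interferons use the same kinase family but mainly other factors of the STAT family and IRF9, and interferon gamma, made by T cells and natural killer cells, is known for inducing guanylate-binding proteins, the chemokines Cxcl9 and Cxcl10 and the genes of antigen presentation. Class I molecules of the major histocompatibility complex (MHC) display peptides from inside a cell. Class II molecules, with their chaperone Cd74 and their master regulator Ciita, display peptides taken up from outside. In the optic nerve these programmes are found in astrocytes, microglia, vessel cells and cells that enter from the blood.

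Promoter windows of 6 genes of these programmes are shown because they were higher with AAV-CNTF, or had among the lowest p-values of their list, and hold a motif of the pathway. The windows come from RefSeq (GRCm38.p6) and run from 250 bases before the start site to 50 after it, 5′ to 3′ on the gene's strand. Capitals mark the motif that was searched, on either strand: TTCNNNGAA, the STAT site, in Socs3 and Fgl2, GAAANNGAA, the core of the interferon-stimulated response element, in Cxcl9, Gbp2 and B2m, and CTGATTGG, the Y box found in promoters of MHC class II genes, in H2-Eb1. The Cxcl9 window also holds the Y box, on the reverse strand, which is left there in small letters. The Y box was added to the search after the values were seen. None of the 3 motifs contains another.
Socs3 (chr11:117969317-117969616, minus strand): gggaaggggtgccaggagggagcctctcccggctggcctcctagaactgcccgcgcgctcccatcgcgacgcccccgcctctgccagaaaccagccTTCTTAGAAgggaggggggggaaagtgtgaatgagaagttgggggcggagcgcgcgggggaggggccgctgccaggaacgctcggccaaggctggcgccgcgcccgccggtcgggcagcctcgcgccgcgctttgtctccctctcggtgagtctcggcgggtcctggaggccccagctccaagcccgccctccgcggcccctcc
Fgl2 (chr5:21372423-21372722, plus strand): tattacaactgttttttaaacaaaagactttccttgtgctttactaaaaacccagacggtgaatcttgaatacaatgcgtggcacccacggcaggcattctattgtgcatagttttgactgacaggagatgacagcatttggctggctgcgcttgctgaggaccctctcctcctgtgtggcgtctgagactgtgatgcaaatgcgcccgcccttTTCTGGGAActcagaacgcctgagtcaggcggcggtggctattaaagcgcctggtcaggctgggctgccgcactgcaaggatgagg
Cxcl9 (chr5:92328030-92328329, minus strand): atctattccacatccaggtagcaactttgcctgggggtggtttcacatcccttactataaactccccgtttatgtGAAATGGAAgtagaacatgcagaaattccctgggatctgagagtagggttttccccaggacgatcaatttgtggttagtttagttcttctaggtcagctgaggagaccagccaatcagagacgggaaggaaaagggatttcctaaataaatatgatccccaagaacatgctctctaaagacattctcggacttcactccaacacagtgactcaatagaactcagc
Gbp2 (chr3:142620413-142620712, plus strand): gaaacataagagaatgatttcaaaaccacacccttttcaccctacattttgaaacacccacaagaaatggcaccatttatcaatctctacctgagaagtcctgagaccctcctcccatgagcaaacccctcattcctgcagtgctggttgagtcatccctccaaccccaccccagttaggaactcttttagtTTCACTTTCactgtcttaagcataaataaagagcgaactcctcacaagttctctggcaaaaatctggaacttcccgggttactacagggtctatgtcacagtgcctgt
B2m (chr2:122147437-122147736, plus strand): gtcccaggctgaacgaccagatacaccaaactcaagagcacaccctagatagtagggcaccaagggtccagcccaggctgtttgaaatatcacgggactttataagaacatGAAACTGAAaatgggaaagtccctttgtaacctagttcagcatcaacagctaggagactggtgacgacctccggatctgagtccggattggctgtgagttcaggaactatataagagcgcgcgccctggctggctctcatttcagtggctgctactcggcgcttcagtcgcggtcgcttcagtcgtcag
H2-Eb1 (chr17:34305617-34305916, plus strand): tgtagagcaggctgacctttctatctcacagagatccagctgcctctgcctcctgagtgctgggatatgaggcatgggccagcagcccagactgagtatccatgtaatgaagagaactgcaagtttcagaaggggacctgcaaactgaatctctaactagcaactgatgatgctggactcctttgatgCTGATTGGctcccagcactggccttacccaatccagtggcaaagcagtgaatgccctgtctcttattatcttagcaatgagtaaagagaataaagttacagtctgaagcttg

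The STAT site began 154 bases before the start site in Socs3 and 36 before it in Fgl2. The response element core began 175 bases before the start site in Cxcl9, 139 before it in B2m and, on the reverse strand, 58 before it in Gbp2. In H2-Eb1 the Y box began 62 bases before it. These letters are not rare: 8.30% of the 32851 windows in the table held the STAT site, 8.56% the response element core and 4.10% the Y box. A window was at hand for 17 of the 25 interferon gamma response genes tested, and 12 of them held the core and 7 the STAT site. Of 22 type I interferon response genes with a window 13 held the core, of 21 STAT3 pathway genes 7 held the STAT site, and 3 of 8 MHC class II genes and 6 of 14 MHC class I genes held the Y box. Among genes with an unadjusted p under 0.05 in the comparison below, 19.3% of the 398 higher ones with a window held the core, against 7.12% of the 393 lower ones and 8.78% of all tested genes with one. For the STAT site these shares were 12.8%, 6.87% and 8.16%, and for the Y box 6.78%, 6.11% and 6.70%. The shares had been planned for genes with an adjusted p under 0.05 instead. Of those 8 genes 6 had a window, of which 1 held the core, none the STAT site and 3 the Y box. A match gives the presence of these letters and not the binding of a factor.

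The crush libraries held 23775487 to 29558293 expected counts with AAV-CNTF and 19918858 to 29138927 with AAV-null, over the listed genes. AAV-null replicate 6 stood apart: it lay at 101 on the first principal component of the 10 crush libraries, where the other 9 lay between -23.2 and 0.93, and 3.18% of listed genes had no count in it. AAV-CNTF replicate 4 was the highest library for many interferon and MHC genes below and replicate 6 the lowest of its group for several of them. Values without replicate 4 are given where it moved a named gene by over 1.5-fold or ended a call. Transcripts of the nerve's own glia, such as Gfap and Mbp, were abundant in every library, and 1 of 13 markers of retinal cells was among the genes tested. Levels are in counts scaled to TMM-normalized library size (CPM). Values over libraries are given for replicates 2 to 6 in that order, averages with their SD (n = 5 libraries in each group), and log2 fold changes with their SE, with Benjamini-Hochberg adjusted p-values of edgeR's quasi-likelihood test over all tested genes.

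Few genes passed the threshold, and those that rose were genes of antigen presentation, genes of vessels and a chemokine. Of the 14194 genes, 8 (0.0564%) had a Benjamini-Hochberg adjusted p under 0.05 by edgeR's quasi-likelihood test, 6 higher (0.0423%) and 2 lower (0.0141%) with AAV-CNTF. Those that rose were Plvap and Rhoj of the endothelium, H2-Q7 of MHC class I, H2-Eb1 and Cd74 of MHC class II, and the chemokine Cxcl9. Cxcl9 reached the minimum level of the deposited table with AAV-CNTF alone, so its place there is tied to its direction. Fyn and Tmem132b fell. Without adjustment 1091 genes (7.69%) had a p under 0.05, 559 higher (3.94%) and 532 lower (3.75%), where 710 would be expected by chance. All 5 AAV-CNTF libraries lay above all 5 AAV-null libraries in 119 genes (0.838%) and below them in 101 (0.712%). The median log2 fold change of all tested genes was 0.00 to 2 decimals. Among genes with an unadjusted p under 0.05, 158 were higher and 81 lower by at least 2-fold. The count of 8 is sensitive to single libraries: it was 2 without AAV-CNTF replicate 4, 41 without AAV-CNTF replicate 6, 1 without AAV-null replicate 2 or 4, and 4 without AAV-null replicate 6. With the sham libraries left out of the fit 1 gene passed, Plvap.

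**Figure D1:**
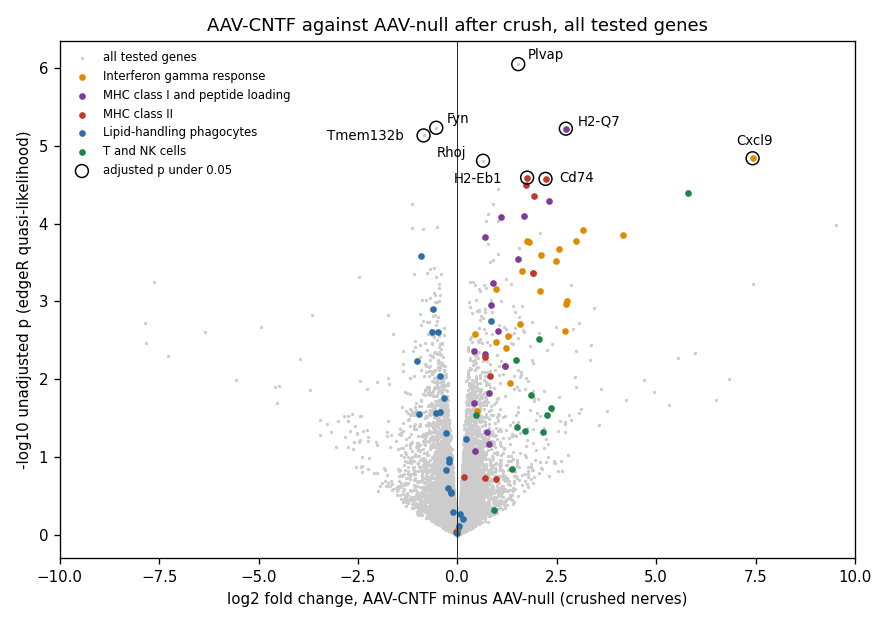
Log2 fold change of every tested gene (AAV-CNTF minus AAV-null, crushed nerves, horizontal) against -log10 of its unadjusted p (vertical); colours mark members of 5 gene lists, a gene of several lists taking the last colour drawn, and rings mark the 8 genes with an adjusted p under 0.05. Most interferon gamma response and MHC genes lie to the right of 0 and most lipid-handling phagocyte genes lie to the left.

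Plvap had the lowest p of all genes. It encodes the protein of the diaphragms that span endothelial fenestrae and caveolae, is scarce in mature vessels with a blood-brain barrier, and lies on chromosome 8 (71497765 to 71511752, minus strand, mm10). With AAV-CNTF the level of Plvap was 79.6, 34.9, 45.1, 56.1 and 53.02 CPM, and with AAV-null it was 22.9, 13.7, 22.1, 20.8 and 13.5 CPM. All 5 AAV-CNTF libraries stood above all 5 AAV-null libraries, and the sham libraries, at 9.81 to 16.5 CPM, lay below or among the AAV-null ones. The log2 fold change was 1.53 ± 0.22 (adjusted p = 0.0127). It passed the threshold in all 26 alternatives of normalization, filter, test and left-out library, with a highest adjusted p of 0.0492.

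Rhoj, a small GTPase of endothelial cells active in vessel growth (chromosome 12, 75308322 to 75401456, plus strand, mm10), rose by less. Across libraries Rhoj stood at 146, 148, 139.8, 118 and 149.8 CPM with AAV-CNTF, against 94.7, 83.1, 74.3, 81.2 and 115 CPM with AAV-null. The groups did not overlap, the nearest being AAV-CNTF replicate 5 and AAV-null replicate 6. The fit gave Rhoj a change of 0.65 ± 0.11 on the log2 scale (adjusted p = 0.0368). Leaving out AAV-CNTF replicate 4 gave a fitted value of 0.65 (adjusted p = 0.0835). In the endothelial list of 22 genes these 2 passed the threshold, 8 were higher and 1 lower at an unadjusted p under 0.05 (3.94% and 3.75% of all genes), 4 lay higher without overlap (0.838% of all genes), and the median log2 fold change was 0.28 (0.00 for all genes). Over the alternatives the higher genes numbered 4 to 10 and the median ran from 0.18 to 0.38. The count was 4 without AAV-null replicate 6 and AAV-CNTF replicate 4 together. Vcam1, the adhesion molecule that leukocytes bind on activated endothelium, averaged 275 ± 116 CPM with AAV-CNTF and 165 ± 37.8 with AAV-null and did not pass (log2 fold change 0.74 ± 0.22, adjusted p = 0.288). Emcn, a sialomucin of veins and capillaries, averaged 13.5 ± 7.86 CPM with AAV-CNTF and 6.36 ± 1.68 with AAV-null and did not pass either (log2 fold change 1.09 ± 0.35, adjusted p = 0.358). The lower one was Slc2a1, the glucose transporter of barrier endothelium, which averaged 104 ± 12.97 CPM with AAV-CNTF and 131 ± 11.3 with AAV-null without overlap and did not pass (log2 fold change -0.33 ± 0.10, adjusted p = 0.258). Of the 12 tested pericyte and smooth muscle genes none passed, and 1, Tagln, an actin-binding protein of smooth muscle, was lower at an unadjusted p under 0.05, with a list median of 0.19. In bulk RNA more or fewer cells of a type and more or less RNA per cell cannot be told apart, which holds for every list below. Lists and members were chosen with earlier results of these data known. Counts and medians of a list may in part reflect that choice, and the shares over all genes give their scale without a test.

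**Figure D2:**
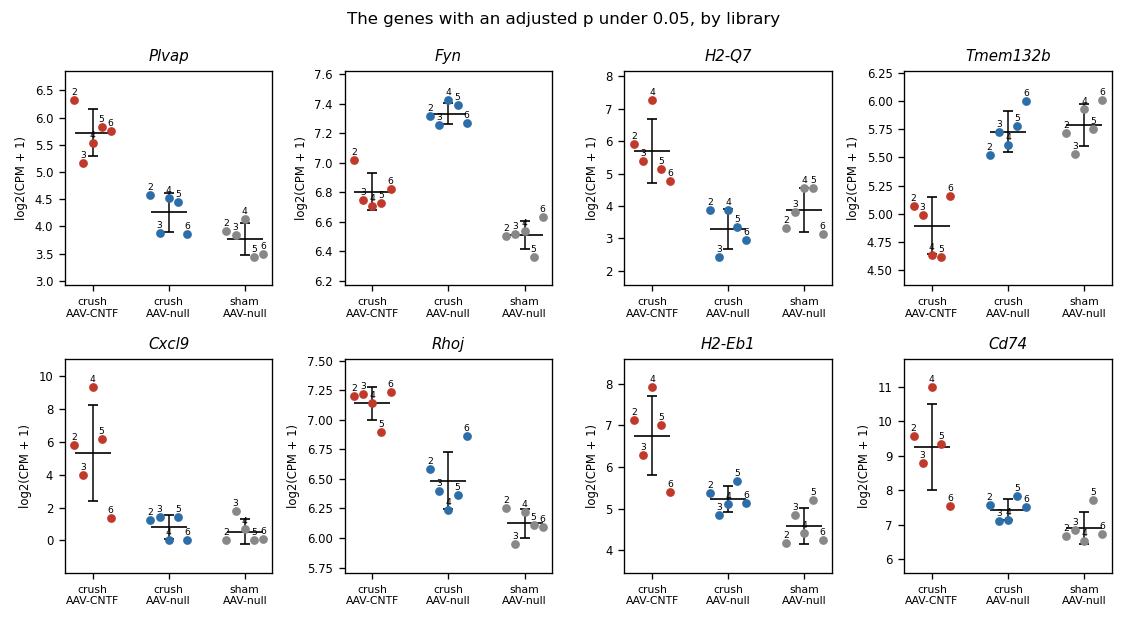
Levels of the 8 genes with an adjusted p under 0.05, as log2(CPM + 1) (vertical), in each library of the 3 groups (horizontal); points carry the replicate number, and the bar and whiskers are the mean and SD of 5 libraries. Plvap, H2-Q7 and Rhoj separate the crush groups upward and Fyn and Tmem132b downward, while AAV-CNTF replicate 6 lies low for Cxcl9, H2-Eb1 and Cd74.

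The 2 genes that fell were Fyn and Tmem132b. Fyn, a Src family kinase that oligodendrocytes use during myelination (chromosome 10, 39368855 to 39565381, plus strand, mm10), was the tighter of them. Fyn measured 128, 106, 103, 105 and 112 CPM with AAV-CNTF and 159, 152, 171, 167 and 154 CPM with AAV-null. Every AAV-CNTF library lay below every AAV-null library, and the sham libraries lay lower still, at 81.1 to 98.1 CPM. For Fyn the log2 fold change came to -0.53 ± 0.09 (adjusted p = 0.0261). The adjusted p without AAV-CNTF replicate 4 was 0.0812. Tmem132b, a transmembrane protein gene on chromosome 5 (125531774 to 125792583, plus strand, mm10), separated the groups as well. With AAV-CNTF the level of Tmem132b was 32.7, 30.8, 23.8, 23.5 and 34.7 CPM, and with AAV-null it was 44.9, 51.9, 47.99, 53.9 and 63.2 CPM. Here the sham libraries, at 45.2 to 63.6 CPM, overlapped the AAV-null ones. Tmem132b differed by -0.85 ± 0.14 on the log2 scale (adjusted p = 0.0261). The fitted value was -0.79 without AAV-CNTF replicate 4 (adjusted p = 0.0812).

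Of the 15 genes next by p 3 were lower, none of them past the threshold. Unc13c, a presynaptic priming factor, averaged 19.9 ± 6.66 CPM with AAV-CNTF and 44.1 ± 14.3 with AAV-null (log2 fold change -1.14 ± 0.23, adjusted p = 0.0531), beside 2195 to 3833 CPM in sham nerves. Dpy19l4, a gene of the C-mannosyltransferase family, averaged 61.3 ± 6.19 CPM with AAV-CNTF and 86.9 ± 6.82 with AAV-null with no overlap (log2 fold change -0.51 ± 0.11, adjusted p = 0.0693). The antisense transcript 4930488L21Rik averaged 5.45 ± 0.880 CPM with AAV-CNTF and 11.9 ± 3.28 with AAV-null, also without overlap (log2 fold change -1.13 ± 0.24, adjusted p = 0.0693), and since the strand setting of the counting is not given, its reads may belong in part to the gene on the other strand.

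Some transcripts of the pathway that CNTF uses lay higher, none past the threshold, and the cytokine's own transcript did not separate the groups. Cntf, which in nerves is made by astrocytes and Schwann cells, averaged 5.64 ± 1.64 CPM with AAV-CNTF and 5.29 ± 3.24 with AAV-null, and 11.7 to 24.5 CPM in sham. The log2 fold change was 0.09 ± 0.42 (adjusted p = 0.985). The 95% interval of that change ran from -0.78 to 0.96 on the log2 scale, just inside a 2-fold change in either direction. No source used here says whether reads of the viral insert count as Cntf. Of the 16 tested genes for CNTF family cytokines, receptors and kinases, none passed the threshold and 4 were higher at an unadjusted p under 0.05 (Lifr, Osmr, Il6st and Jak2), with none lower and a median of 0.10. Across libraries Lifr stood at 84.97, 99.7, 102, 108 and 93.98 CPM with AAV-CNTF, against 81.02, 63.1, 76.2, 80.8 and 75.1 CPM with AAV-null. The groups did not overlap for this receptor subunit, and sham nerves held 104 to 136 CPM. The fit gave Lifr a change of 0.38 ± 0.10 on the log2 scale (adjusted p = 0.202). Osmr, the oncostatin M receptor, averaged 145 ± 26.6 CPM with AAV-CNTF and 109 ± 22.1 with AAV-null (log2 fold change 0.41 ± 0.15, adjusted p = 0.461), and Il6st averaged 483 ± 64.8 CPM with AAV-CNTF and 409 ± 30.9 with AAV-null (log2 fold change 0.24 ± 0.09, adjusted p = 0.506). Cntfr itself averaged 66.2 ± 16.3 CPM with AAV-CNTF and 59.2 ± 15.8 with AAV-null and the groups overlapped (log2 fold change 0.16 ± 0.18, adjusted p = 0.931).

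Of the 25 STAT3 pathway and response genes, 10 were higher and none lower at an unadjusted p under 0.05 (3.94% and 3.75% of all genes), 4 lay higher without overlap between the groups (0.838% of all genes), and 23 lay above 0. The same shares over all genes stand beside the counts of every list below. None passed the adjusted threshold, and the median was 0.35. The deposited table has a minimum level, described with the interferon gamma list. Of the 24 STAT3 genes that reached it with AAV-null, 9 were higher and none lower, with a median of 0.34. Fgl2, a secreted fibrinogen-like immune regulator, came nearest. Fgl2 measured 87.5, 78.97, 157, 103 and 62 CPM with AAV-CNTF and 59.6, 47.5, 49.96, 52.7 and 54.5 CPM with AAV-null. The groups did not overlap, with AAV-CNTF replicate 4 highest. For Fgl2 the log2 fold change came to 0.89 ± 0.17 (adjusted p = 0.0531). Fos, an immediate early transcription factor, averaged 64.3 ± 9.36 CPM with AAV-CNTF and 41.2 ± 7.63 with AAV-null (log2 fold change 0.64 ± 0.14, adjusted p = 0.0757). For Socs3, whose window with its STAT site is printed above, the lowest AAV-CNTF library and the highest AAV-null library almost touched. With AAV-CNTF the level of Socs3 was 85.8, 106, 87.5, 88.8 and 76.4 CPM, and with AAV-null it was 49.3, 47.7, 35.3, 53.2 and 76.05 CPM. Sham nerves held 15.5 to 24.6 CPM, below every crush library. Socs3 differed by 0.76 ± 0.17 on the log2 scale (adjusted p = 0.0788). Stat3 averaged 219 ± 17.3 CPM with AAV-CNTF and 182 ± 14.6 with AAV-null (log2 fold change 0.26 ± 0.08, adjusted p = 0.316). Gfap, the astrocyte filament protein and a STAT3 target, did not separate the groups: it averaged 3093 ± 254 CPM with AAV-CNTF and 3092 ± 399 with AAV-null, with a log2 fold change of 0.00 ± 0.10 (SE). With AAV-CNTF replicate 4 left out, the number of higher STAT3 genes was 7 of 25 and the median 0.33.

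**Figure D3:**
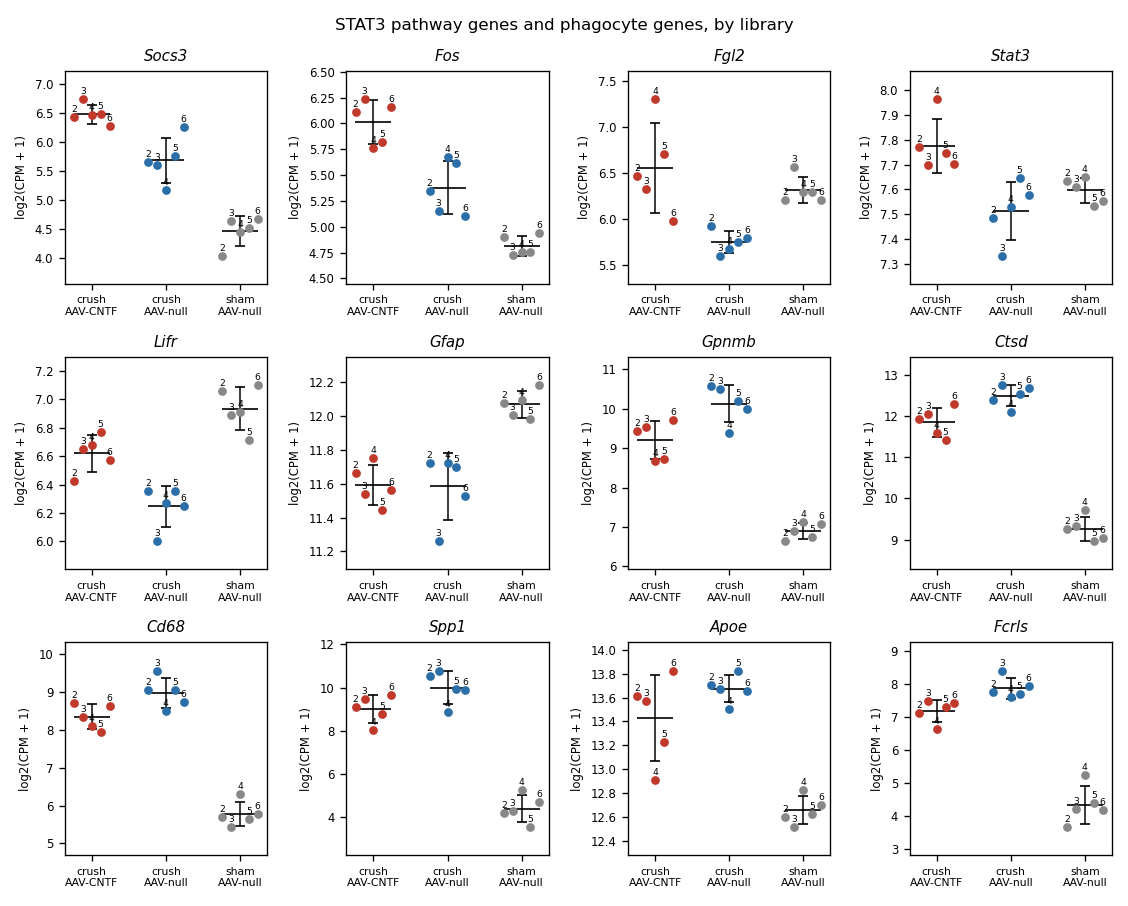
Levels of 6 genes of the CNTF and STAT3 pathway and 6 phagocyte or microglial genes as log2(CPM + 1) (vertical) in each library of the 3 groups (horizontal); points carry the replicate number, and the bar and whiskers are the mean and SD of 5 libraries. Socs3, Fos, Fgl2, Stat3 and Lifr lie higher with AAV-CNTF without overlap, Gfap does not separate, Apoe overlaps widely, and Gpnmb, Ctsd, Cd68 and Spp1 lie lower with overlap and Fcrls without.

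Interferon gamma response genes were higher in nearly every member. Of the 25 tested, 24 were higher and none lower at an unadjusted p under 0.05, all 25 had a log2 fold change above 0, and the median was 1.80, against 0.00 for all genes. The list was chosen with earlier results of these data known, so these counts describe its members and do not test the list. Without overlap between the groups 3 of the 25 lay higher, Gbp8, Gbp9 and Iigp1 (0.838% of all genes). The deposited table holds genes with an FPKM of at least 1 in 4 libraries of a group. Of the 25, 3 reached that with AAV-CNTF and not with AAV-null, Cxcl9 and Gbp8 among them. Their place in the table is thus tied to their direction. Of all tested genes 581 were of that kind, and 10.2% of those were higher at an unadjusted p under 0.05. Of the 22 members that reached the minimum with AAV-null too, 21 were higher and the median was 1.69. Cxcl9, a chemokine that draws activated T cells (chromosome 5, 92321347 to 92328079, minus strand, mm10), passed the adjusted threshold. Across libraries Cxcl9 stood at 55.1, 14.7, 648, 70.01 and 1.56 CPM with AAV-CNTF, against 1.42, 1.64, 0, 1.72 and 0 CPM with AAV-null. AAV-CNTF replicates 2 to 5 lay above every AAV-null library whereas replicate 6 lay among them. The log2 fold change was 7.42 ± 1.31 (adjusted p = 0.0368). Without AAV-CNTF replicate 4 the fitted value was 5.23 (adjusted p = 0.168). Iigp1, an immunity-related GTPase that attacks vacuoles of intracellular parasites, averaged 113 ± 186 CPM with AAV-CNTF and 6.33 ± 1.07 with AAV-null (log2 fold change 4.16 ± 0.89, adjusted p = 0.0745). Here no AAV-CNTF library overlapped the AAV-null ones, although replicate 4, at 444 CPM, was far above the rest. Gbp2, a guanylate-binding protein, averaged 182 ± 217 CPM with AAV-CNTF and 42.4 ± 5.05 with AAV-null (log2 fold change 2.10 ± 0.48, adjusted p = 0.0964), and Cxcl10, another T cell chemokine, averaged 90.8 ± 115 CPM with AAV-CNTF and 13.7 ± 4.04 with AAV-null (log2 fold change 2.73 ± 0.72, adjusted p = 0.185). These 3 values rest in large part on AAV-CNTF replicate 4: without it the log2 fold change was 2.25 for Iigp1, 1.02 for Gbp2 and 1.55 for Cxcl10 (adjusted p = 0.384, 0.277 and 0.706). Sham replicate 3 was also high, at 103 CPM for Cxcl10. The guanylate-binding proteins and the Tgtp pair are families of similar sequence, so reads may be split between their members. When AAV-CNTF replicate 4 was left out, 20 of the 25 were higher at an unadjusted p under 0.05 and the median was 1.04, and without AAV-null replicate 6 these were 23 and 1.83. Without AAV-CNTF replicate 6, 11 of the 25 passed the adjusted threshold. Ifng, the cytokine gene itself, was not analysed here.

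Of the 31 type I interferon response genes, all lay above 0, 14 were higher and none lower at an unadjusted p under 0.05, and the median was 0.80. Of the 28 that reached the FPKM minimum with AAV-null too, 14 were higher and the median was 0.79. Without overlap between the groups 4 of the 31 lay higher. None passed the adjusted threshold. Dtx3l, an E3 ligase that works with Parp9 in interferon signalling, averaged 56.04 ± 23.3 CPM with AAV-CNTF and 27.6 ± 5.10 with AAV-null with no overlap (log2 fold change 1.02 ± 0.21, adjusted p = 0.0664). Ifit3b, an RNA-binding antiviral protein gene, averaged 12.7 ± 3.83 CPM with AAV-CNTF and 5.58 ± 1.36 with AAV-null, again with no overlap (log2 fold change 1.18 ± 0.34, adjusted p = 0.245), and sham nerves held 10.1 to 46.5 CPM. Oasl2, an oligoadenylate synthetase-like gene, averaged 96.5 ± 69.8 CPM with AAV-CNTF and 43.7 ± 16.5 with AAV-null (log2 fold change 1.14 ± 0.39, adjusted p = 0.42), and without AAV-CNTF replicate 4 its log2 fold change was 0.58 (adjusted p = 0.883). With AAV-CNTF replicate 4 left out, 6 of the 31 were higher at an unadjusted p under 0.05 and the median was 0.57, and without AAV-null replicate 6 these were 12 and 0.76. The factors that carry these signals were also higher in part: of 12 STAT and IRF genes, all 12 lay above 0 and 6 were higher at an unadjusted p under 0.05, with a median of 0.41. Irf1, a transcription factor that interferons induce, averaged 38.01 ± 25.8 CPM with AAV-CNTF and 12.9 ± 4.22 with AAV-null (log2 fold change 1.56 ± 0.35, adjusted p = 0.0869), and Irf9 averaged 35.5 ± 5.12 CPM with AAV-CNTF and 19.7 ± 5.99 with AAV-null without overlap (log2 fold change 0.85 ± 0.22, adjusted p = 0.177).

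**Figure D4:**
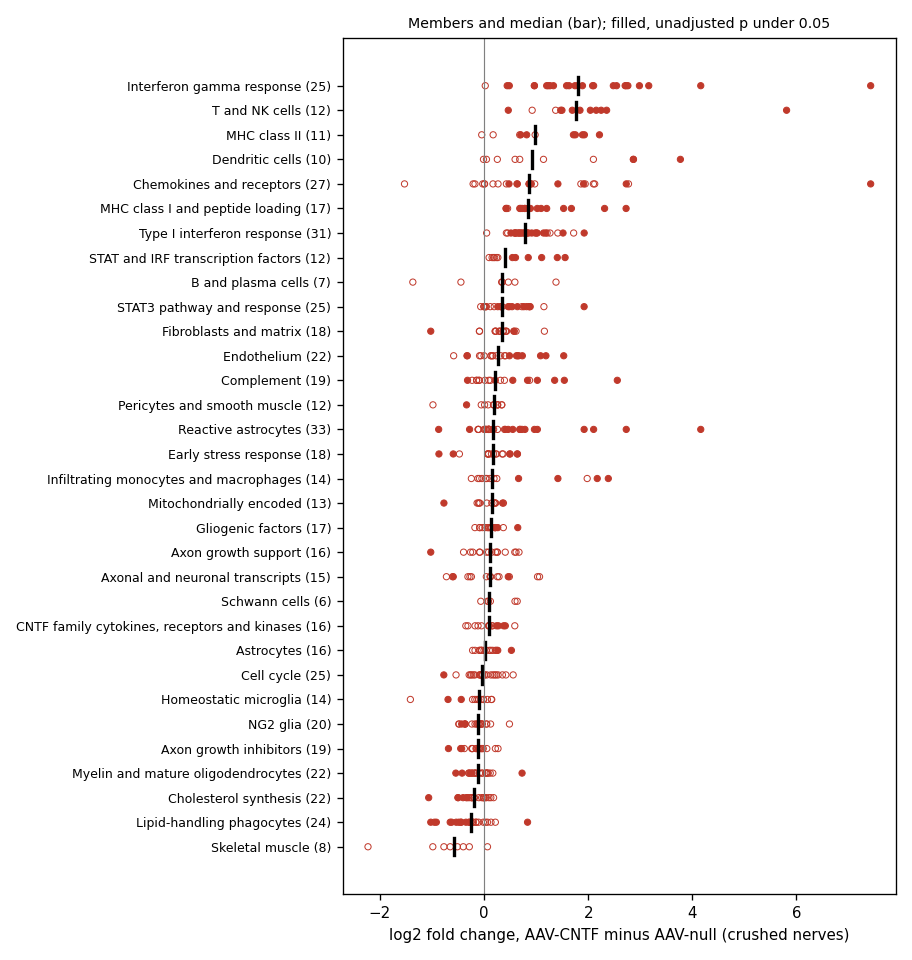
Log2 fold change (AAV-CNTF minus AAV-null, crushed nerves, horizontal) of every member of each gene list with at least 5 tested genes (rows, number tested in brackets); filled points have an unadjusted p under 0.05 and bars are list medians. The median is 1.80 for the interferon gamma response and -0.58 for skeletal muscle, and all 25 interferon gamma response genes lie above 0. Members that reached the table's FPKM minimum with AAV-CNTF and not with AAV-null are drawn too. These are 7 of 12 T and NK cell genes, 6 of 10 dendritic cell genes and 8 of 27 chemokine genes. The bars of these lists are partly set by that minimum, and no result is drawn from them.

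MHC class I genes were higher in nearly every member. Of 17 tested, all lay above 0, 15 were higher and none lower at an unadjusted p under 0.05, 7 separated the groups without overlap, and the median was 0.85. H2-Q7, a nonclassical class I heavy chain (chromosome 17, 35439155 to 35443773, plus strand, mm10), rose. H2-Q7 measured 58.9, 40.6, 155, 34.6 and 26.1 CPM with AAV-CNTF and 13.5, 4.36, 13.8, 9.25 and 6.70 CPM with AAV-null. No AAV-CNTF library overlapped the AAV-null ones. The fit gave H2-Q7 a change of 2.73 ± 0.45 on the log2 scale (adjusted p = 0.0261). Without AAV-CNTF replicate 4 the fitted value was 2.07 (adjusted p = 0.0631). H2-Q6 and H2-Q4, its neighbours in the family, gave 2.32 ± 0.45 and 1.68 ± 0.34 (log2 fold change and SE; edgeR quasi-likelihood adjusted p = 0.0531 and 0.0645), and without AAV-CNTF replicate 4 they gave 1.44 and 1.15. These genes are near copies of one another, so how reads were shared among them is uncertain. H2-K1, a classical class I heavy chain, averaged 464 ± 209 CPM with AAV-CNTF and 217 ± 35.2 with AAV-null with no overlap (log2 fold change 1.10 ± 0.22, adjusted p = 0.0645). With AAV-CNTF the level of B2m was 2679.8, 1789.8, 4524, 1582 and 1766 CPM, and with AAV-null it was 1362, 1414, 1443, 1207 and 1232 CPM. This shared light chain of class I molecules, whose window with its response element core is printed above, did not overlap between the groups (log2 fold change 0.89 ± 0.22, adjusted p = 0.143). Tap1, a subunit of the peptide transporter, averaged 66.1 ± 52.7 CPM with AAV-CNTF and 22.9 ± 7.06 with AAV-null, also without overlap (log2 fold change 1.53 ± 0.35, adjusted p = 0.104), and its log2 fold change was 0.89 without AAV-CNTF replicate 4 (adjusted p = 0.355). When AAV-CNTF replicate 4 was left out, 11 of the 17 were higher at an unadjusted p under 0.05 and the median was 0.58, and without AAV-null replicate 6 these were 14 and 0.86.

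Of the 11 MHC class II genes, 2 passed the threshold, 7 were higher and none lower at an unadjusted p under 0.05, and the median was 0.98. No member lay higher without overlap between the groups. Cd74, the invariant chain that escorts class II molecules, rose. Across libraries Cd74 stood at 766, 439, 2039, 641 and 187 CPM with AAV-CNTF, against 189, 138, 139, 226 and 183 CPM with AAV-null. AAV-CNTF replicates 2 to 5 lay above all AAV-null libraries and replicate 6 lay among them. For Cd74 the log2 fold change came to 2.22 ± 0.41 (adjusted p = 0.0473). With AAV-CNTF replicate 4 left out, the fitted value was 1.54 (adjusted p = 0.0835). H2-Eb1, a class II beta chain (chromosome 17, 34305867 to 34316674, plus strand, mm10), rose as well. H2-Eb1 measured 139, 76.7, 241, 128 and 41.5 CPM with AAV-CNTF and 40.7, 27.7, 33.6, 49.3 and 34.4 CPM with AAV-null. The pattern over libraries was the one of Cd74, with AAV-CNTF replicate 4 highest and replicate 6 within the AAV-null range. H2-Eb1 differed by 1.75 ± 0.32 on the log2 scale (adjusted p = 0.0473). Without AAV-CNTF replicate 4 the fitted value was 1.37 (adjusted p = 0.111). H2-Aa, the matching alpha chain, averaged 124 ± 75.8 CPM with AAV-CNTF and 37.8 ± 3.18 with AAV-null and just missed the threshold (log2 fold change 1.72 ± 0.32, adjusted p = 0.0506), as did H2-Ab1, which averaged 209 ± 162 CPM with AAV-CNTF and 55.04 ± 16.96 with AAV-null (log2 fold change 1.93 ± 0.37, adjusted p = 0.0529). Ciita, the activator of class II transcription, averaged 15.3 ± 12.1 CPM with AAV-CNTF and 4.12 ± 1.44 with AAV-null (log2 fold change 1.89 ± 0.45, adjusted p = 0.129), and reached the table's FPKM minimum with AAV-CNTF alone. Of the other 10 genes 6 were higher, with a median of 0.90. Without AAV-CNTF replicate 4 none of the 11 passed the adjusted threshold, 6 were higher at an unadjusted p under 0.05 and the median was 0.65. Sham nerves held 91.3 to 211 CPM of Cd74 and 12.3 to 28.5 CPM of H2-Aa.

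T cell transcripts were scarce, and those that could be compared were higher with AAV-CNTF. Of 23 T and natural killer cell markers 12 were tested and the other 11 were not analysed here. Of the 12, 7 reached the table's FPKM minimum with AAV-CNTF and not with AAV-null, so no count or median over the 12 is given. The 5 that reached it with AAV-null too, Cd3e, Cd4, Cd2, Trac and Thy1, were all higher at an unadjusted p under 0.05, and none passed the adjusted threshold. That count was 2 without AAV-CNTF replicate 4 or AAV-null replicate 3, 3 without AAV-CNTF replicate 2 or AAV-null replicate 4 or 5, and 4 without AAV-null replicate 2 or 6. Cd3e, a chain of the T cell receptor complex, averaged 11.9 ± 6.55 CPM with AAV-CNTF and 2.88 ± 2.33 with AAV-null (log2 fold change 2.04 ± 0.61, adjusted p = 0.279), and the coreceptor Cd4 averaged 10.9 ± 6.55 CPM with AAV-CNTF and 3.94 ± 0.946 with AAV-null (log2 fold change 1.47 ± 0.48, adjusted p = 0.357).

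Lck, the kinase next to the T cell receptor, is one of the 7, and was at 0 in all AAV-null libraries but replicate 5. With AAV-CNTF the level of Lck was 7.05, 3.47, 4.69, 3.91 and 2.04 CPM, and with AAV-null it was 0, 0, 0, 0.361 and 0 CPM. The groups did not overlap, on 576 counts over the AAV-CNTF group and 8 over the AAV-null group. The log2 fold change was 5.81 ± 1.11 (adjusted p = 0.0528). Summed over the 12 tested markers the level was 66.8 to 187 CPM in the AAV-CNTF libraries, 44.8 to 68.4 CPM in the AAV-null libraries and 37.9 to 71.6 CPM in sham (lowest to highest). Much of that sum is Thy1, which neurons also express, at 29.1 to 74.5 CPM with AAV-CNTF and 36.05 to 48.2 with AAV-null. The other 11 summed to 37.3 to 115 CPM with AAV-CNTF, 8.76 to 22.9 with AAV-null and 18.8 to 45.04 in sham. Both sums include the 7 markers whose place in the table is tied to their direction. The gap between the crush groups in these sums is therefore partly set by that minimum, and no result is drawn from it. AAV-CNTF replicate 6, the lowest for the interferon gamma list, had Lck and Cd3e above every AAV-null library. Lck is tied to the minimum, however, and Cd3e overlapped between the groups through another AAV-CNTF library. No result is drawn from that replicate. The part of these cells in the interferon and MHC values was not tested.

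Dendritic cell markers were scarce as well. Of 10 tested 6 reached the FPKM minimum with AAV-CNTF and not with AAV-null, and of the other 4 none was higher or lower at an unadjusted p under 0.05, with a median of 0.15. The summed level of the 10 was 43.04 to 106 CPM with AAV-CNTF against 36.3 to 57.6 with AAV-null. That sum includes the 6, so its gap is partly set by the minimum too. Ccl22, Xcr1 and Clec9a are among the 6, and each reached the minimum in no group but AAV-CNTF. Of all 354 tested genes of that kind 10.5% were higher at an unadjusted p under 0.05. Ccl22, a chemokine of mature dendritic cells, averaged 10.8 ± 9.07 CPM with AAV-CNTF and 1.46 ± 0.735 with AAV-null (log2 fold change 2.87 ± 0.71, adjusted p = 0.143). Xcr1, a chemokine receptor of cross-presenting dendritic cells, averaged 4.89 ± 2.34 CPM with AAV-CNTF and 0.356 ± 0.795 with AAV-null (log2 fold change 3.77 ± 1.56, adjusted p = 0.548). Its companion Clec9a, a receptor for dead-cell actin, averaged 4.52 ± 3.04 CPM with AAV-CNTF and 0.609 ± 0.685 with AAV-null (log2 fold change 2.87 ± 1.26, adjusted p = 0.597). AAV-CNTF replicate 6 was the lowest library of its group for these 3 genes.

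Of 14 monocyte and macrophage markers 4 were higher and none lower at an unadjusted p under 0.05, with a median of 0.15. Of the 13 that reached the FPKM minimum with AAV-null too, 4 were higher and the median was 0.11. Ccr2, the receptor that brings monocytes into tissue, averaged 17.1 ± 5.92 CPM with AAV-CNTF and 6.40 ± 1.99 with AAV-null without overlap (log2 fold change 1.42 ± 0.52, adjusted p = 0.464), and Ly6c2, a surface marker of those monocytes, averaged 12.6 ± 15.5 CPM with AAV-CNTF and 2.41 ± 1.42 with AAV-null (log2 fold change 2.39 ± 0.72, adjusted p = 0.289). Without AAV-CNTF replicate 4 the log2 fold change of Ly6c2 was 1.30 (adjusted p = 0.854). None of 7 B and plasma cell markers and none of 3 neutrophil markers reached an unadjusted p under 0.05. The immunoglobulin heavy chain gene Igha averaged 70.4 ± 68.1 CPM with AAV-CNTF and 27.01 ± 17.1 with AAV-null, with 2 high AAV-CNTF libraries (log2 fold change 1.38 ± 0.67, adjusted p = 0.654).

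**Figure D5:**
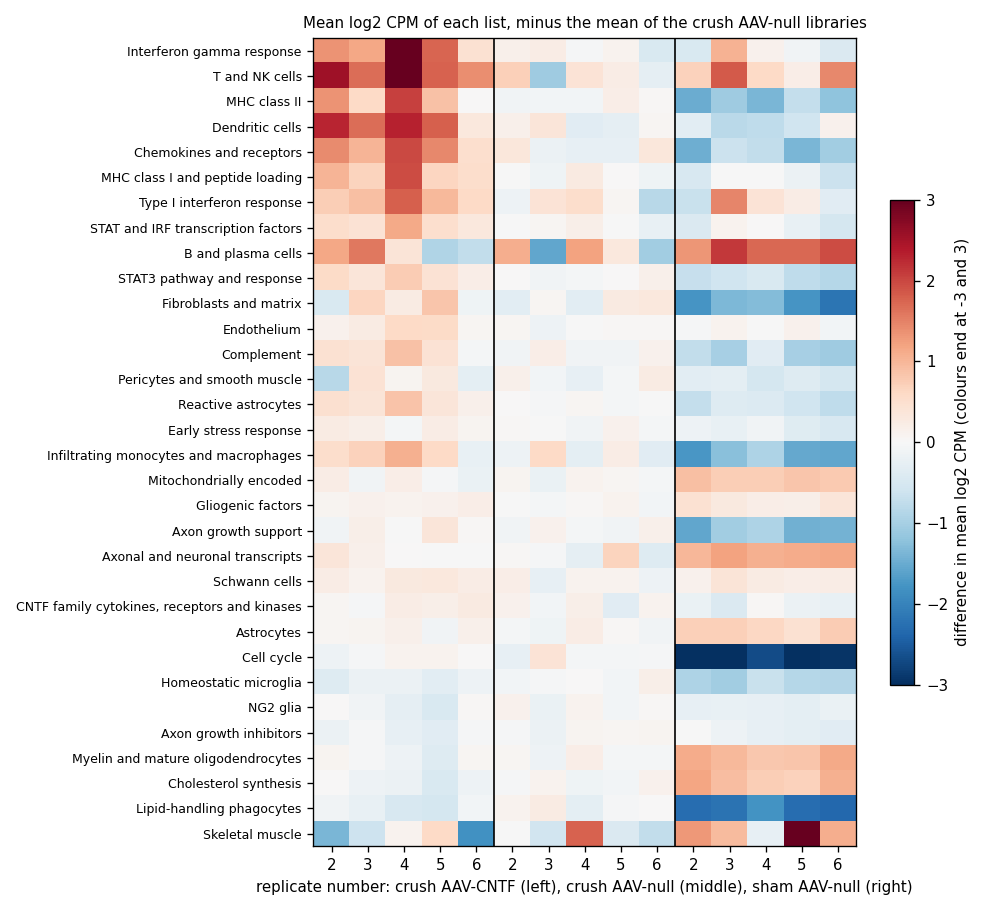
Mean log2 CPM of each gene list (rows, lists with at least 5 tested genes) in each library (columns, by group and replicate number), minus the mean of the 5 crush AAV-null libraries; red is higher, blue is lower, and colours end at -3 and 3. AAV-CNTF replicate 4 is the reddest column for the interferon gamma list, at 3.49, and replicate 6 the palest of its group, at 0.46. The rows of T and NK cells, dendritic cells and chemokines include members tied to the table's FPKM minimum. Their gap between the crush groups is partly set by it, and no result is drawn from it.

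Among 27 chemokines and their receptors 8 reached the table's FPKM minimum with AAV-CNTF alone, Cxcl9 among them. Of the other 19, 7 were higher and none lower at an unadjusted p under 0.05, with a median of 0.63. Of 19 complement genes 7 were higher and 1 lower, with a median of 0.22. Across libraries C3 stood at 506, 336, 674, 309 and 282 CPM with AAV-CNTF, against 187, 182, 282, 167 and 219 CPM with AAV-null. This central component of the cascade separated the groups without overlap, although AAV-CNTF replicate 6 and AAV-null replicate 4 were almost level, and sham nerves, at 312 to 402 CPM, lay within the AAV-CNTF range. The fit gave C3 a change of 1.02 ± 0.19 on the log2 scale (adjusted p = 0.0516). Serping1, the C1 inhibitor, averaged 427 ± 102 CPM with AAV-CNTF and 291 ± 36.3 with AAV-null (log2 fold change 0.55 ± 0.14, adjusted p = 0.15), and C4b averaged 1202 ± 96.2 CPM with AAV-CNTF and 1102 ± 133 with AAV-null (log2 fold change 0.13 ± 0.09, adjusted p = 0.861).

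Genes of lipid-laden phagocytes leaned the other way, with overlap between the groups. Of 24 tested none passed the threshold, 11 were lower and 1, Itgax, higher at an unadjusted p under 0.05, 5 lay above 0 and the median was -0.26. None lay lower without overlap (0.712% of all genes), and 1, Axl, lay higher without overlap (0.838% of all genes). Gpnmb, a lysosomal glycoprotein of foamy macrophages, had the lowest p. Gpnmb measured 689.8, 740.2, 407, 423 and 834 CPM with AAV-CNTF and 1526, 1446, 670.0, 1173 and 1019 CPM with AAV-null. AAV-CNTF levels were low in replicates 4 and 5, and AAV-null replicate 4 fell within the AAV-CNTF range, so the groups overlapped. For Gpnmb the log2 fold change came to -0.91 ± 0.21 (adjusted p = 0.0964). Ctsd, a lysosomal protease, averaged 3778 ± 913 CPM with AAV-CNTF and 5810.5 ± 996 with AAV-null (log2 fold change -0.62 ± 0.17, adjusted p = 0.196). Cd68, a lysosomal membrane marker of phagocytes, averaged 331 ± 74.8 CPM with AAV-CNTF and 519 ± 151 with AAV-null (log2 fold change -0.65 ± 0.19, adjusted p = 0.254), and Spp1 (osteopontin) averaged 555 ± 221 CPM with AAV-CNTF and 1127 ± 509 with AAV-null (log2 fold change -1.02 ± 0.33, adjusted p = 0.358). Apoe, the lipid carrier and the most abundant of the list in CPM and in FPKM (scaled by gene length), averaged 11283 ± 2644 CPM with AAV-CNTF and 13105 ± 1029.6 with AAV-null (log2 fold change -0.22 ± 0.13, adjusted p = 0.778). Sham nerves held 98.6 to 137 CPM of Gpnmb, below every crush library. With AAV-CNTF replicate 4 left out, 7 were lower at an unadjusted p under 0.05 and the median was -0.15, and without replicate 6 they were 13 and -0.35. Without AAV-null replicate 3 they were 6 and -0.21, and without AAV-null replicate 6 they were 10 and -0.29.

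Of 14 homeostatic microglial genes none was higher and 2 were lower at an unadjusted p under 0.05, with a median of -0.10. Fcrls, an Fc receptor-like marker of microglia, averaged 147 ± 31.04 CPM with AAV-CNTF and 238 ± 58.2 with AAV-null without overlap (log2 fold change -0.69 ± 0.22, adjusted p = 0.357). Sparc, the most abundant of the homeostatic list in CPM and in FPKM and shared with astrocytes and vessels, averaged 2384 ± 265 CPM with AAV-CNTF and 2163 ± 166 with AAV-null (log2 fold change 0.14 ± 0.09, adjusted p = 0.821).

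The astrocyte markers differed little, and several of the higher members of the reactive list belong to other lists too. Of 16 astrocyte genes 2 were higher and none lower at an unadjusted p under 0.05, with a median of 0.02. Ndrg2 averaged 213 ± 7.0 CPM with AAV-CNTF and 177 ± 17.01 with AAV-null without overlap (log2 fold change 0.26 ± 0.08, adjusted p = 0.302), and Aldoc, a glycolytic enzyme, averaged 106 ± 29.3 CPM with AAV-CNTF and 73.7 ± 21.03 with AAV-null (log2 fold change 0.53 ± 0.20, adjusted p = 0.464). Of 33 reactive astrocyte genes 12 were higher and 2 lower, with a median of 0.17. These 12 included C3, Gbp2, Iigp1, Cxcl10, Serping1 and Osmr, which lists described above also hold. Of the 32 reactive genes that reached the FPKM minimum with AAV-null too, 11 were higher and 2 lower, with a median of 0.13. Of 17 gliogenic factors, which steer precursors to a glial fate, 3 were higher at an unadjusted p under 0.05 (Stat3, Hes1 and Nfia) and the median was 0.13. Hes1, a Notch effector, averaged 17.3 ± 3.82 CPM with AAV-CNTF and 11.01 ± 2.27 with AAV-null (log2 fold change 0.65 ± 0.22, adjusted p = 0.407). Nfix, the most abundant of them on both scales, averaged 824 ± 95.4 CPM with AAV-CNTF and 749 ± 80.03 with AAV-null (log2 fold change 0.14 ± 0.10, adjusted p = 0.824).

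The study's title concerns astrocytes derived from NG2 cells. Of 20 NG2 glia genes, those of oligodendrocyte precursors, none was higher and 3 were lower at an unadjusted p under 0.05 (Cspg4, Bcas1 and Gpr17), with a median of -0.11. With AAV-CNTF the level of Cspg4 was 126, 142, 91.8, 105 and 143 CPM, and with AAV-null it was 143, 199.7, 149, 153 and 173 CPM. Cspg4, the NG2 proteoglycan itself, overlapped only where the highest AAV-CNTF library met AAV-null replicate 2. Cspg4 differed by -0.43 ± 0.13 on the log2 scale (adjusted p = 0.289). Bcas1, a marker of oligodendrocytes that are forming myelin, averaged 658 ± 87.1 CPM with AAV-CNTF and 848 ± 155 with AAV-null (log2 fold change -0.37 ± 0.12, adjusted p = 0.38). Of 22 myelin and mature oligodendrocyte genes 4 were lower and 1, Apod, higher at an unadjusted p under 0.05, with a median of -0.12. Mbp, a main protein of myelin, averaged 11126 ± 1898 CPM with AAV-CNTF and 13051 ± 2229 with AAV-null (log2 fold change -0.23 ± 0.13, adjusted p = 0.741). Apod, a lipocalin of glia that carries lipids, went the other way. Across libraries Apod stood at 4352, 2995, 3033, 2143 and 3068 CPM with AAV-CNTF, against 1892, 1696, 2187, 1738 and 1881 CPM with AAV-null. The lowest AAV-CNTF library, replicate 5, fell just under AAV-null replicate 4, and the other 4 lay above every AAV-null library. The log2 fold change was 0.73 ± 0.15 (adjusted p = 0.0664). Of 22 cholesterol synthesis genes none was higher and 4 were lower at an unadjusted p under 0.05, with a median of -0.19. Idi1, an isomerase of that pathway, averaged 24.2 ± 6.53 CPM with AAV-CNTF and 34.3 ± 7.03 with AAV-null (log2 fold change -0.50 ± 0.18, adjusted p = 0.447).

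In each of the remaining lists 4 or fewer members reached an unadjusted p under 0.05, although for fibroblast and mitochondrial genes that count moved with single libraries. Of 25 cell cycle genes 1, Bub1b of the spindle checkpoint, was lower at an unadjusted p under 0.05, the median was -0.04, and Mki67 averaged 168 ± 33.6 CPM with AAV-CNTF and 177 ± 31.1 with AAV-null (log2 fold change -0.07 ± 0.18, adjusted p = 0.974). Of 18 early stress genes 2 were higher and 2 lower, with a median of 0.16. Hspa1a, a heat shock chaperone, averaged 33.8 ± 8.41 CPM with AAV-CNTF and 61.6 ± 11.7 with AAV-null without overlap (log2 fold change -0.87 ± 0.18, adjusted p = 0.0693). Of 15 axonal and neuronal genes 1 was higher, Thy1, which T cells also express, and 1 lower, Atf3, and the median was 0.11. None of 16 axon growth support genes was higher and 1, Spp1, was lower. Of 19 axon growth inhibitors none was higher and 3 were lower (Bcan, Cspg4 and Lingo1), with a median of -0.11, and Bcan, a proteoglycan of the perineuronal matrix, averaged 65.6 ± 13.7 CPM with AAV-CNTF and 89.5 ± 11.6 with AAV-null (log2 fold change -0.45 ± 0.15, adjusted p = 0.363). Of 18 fibroblast and matrix genes 1 was higher, Dcn (decorin), which averaged 562 ± 197 CPM with AAV-CNTF and 378 ± 94.95 with AAV-null (log2 fold change 0.57 ± 0.20, adjusted p = 0.449), and 1 lower, Spp1, with a median of 0.34. Without AAV-CNTF replicate 2, which was the lowest of its group for this list, 10 of the 18 were higher and the median was 0.48. Without AAV-CNTF replicate 5 none was higher and the median was 0.16, and without AAV-null replicate 6 the values were 4 and 0.44. Of 13 mitochondrially encoded genes 1 was higher and 1 lower: mt-Nd2, a complex I subunit, averaged 4145 ± 1061 CPM with AAV-CNTF and 3233 ± 391 with AAV-null (log2 fold change 0.36 ± 0.14, adjusted p = 0.482), and mt-Co2, a cytochrome oxidase subunit, averaged 572 ± 178 CPM with AAV-CNTF and 975 ± 141 with AAV-null without overlap (log2 fold change -0.77 ± 0.18, adjusted p = 0.129). Without AAV-CNTF replicate 3, 6 of the 13 were higher and the median was 0.20. In markers of tissue that dissection could add, none of 8 skeletal muscle genes, 6 Schwann cell genes, 2 red blood cell genes and 1 retinal gene reached an unadjusted p under 0.05, and 1 of 2 adipocyte genes, Fabp4, was higher, which endothelium also expresses. The skeletal muscle list summed to 16.2 to 145 CPM with AAV-CNTF and 26.96 to 221 with AAV-null, on overlapping ranges.

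The other 2 of the 15 next by p lay outside the lists. Mgst1, a membrane glutathione transferase, averaged 33.2 ± 5.39 CPM with AAV-CNTF and 19.5 ± 3.71 with AAV-null without overlap, and 34.9 to 42.8 CPM in sham (log2 fold change 0.77 ± 0.16, adjusted p = 0.0645). Gm43118, a predicted antisense transcript, had no count in any AAV-null library and 7.77, 5.01, 3.66, 0 and 2.52 CPM in the AAV-CNTF libraries. The caveat on strand given for 4930488L21Rik holds for Gm43118 too. With 3 counts over the AAV-null group as the floor, its pooled level was at least 149-fold higher. That bound allows for counting error and not for the spread between libraries. Since AAV-CNTF replicate 5 was also at 0 the groups touched (edgeR quasi-likelihood adjusted p = 0.0693). It reached the table's FPKM minimum with AAV-CNTF and in sham, where it held 0 to 3.40 CPM, and not with AAV-null.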

How the data were processed

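RNA of 15 optic nerves was sequenced on an Illumina NovaSeq, per the labels. The submitters' processing notes name Trimmomatic 0.32, STAR 2.5.3a, RSEM 1.2.31, DESeq2, R 3.2.3 and the mm10 build. The labels name 2 library kits without saying which served which library, and no source used here gives the annotation. Per the file headers the authors deposited RSEM expected counts per gene and library. The authors also deposited FPKM values, scaled by gene length and depth. These served to compare levels between genes and showed that every gene reaches an FPKM of 1 in 4 or more libraries of a group, so low genes are not covered and a gene low in 2 groups is held through the third.

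Expected counts, of which 13.7% to 18.3% per library were not whole, were rounded and analysed in R 4.3.3 with edgeR 4.0.16: filterByExpr by group, TMM, 1 mean per group over 15 libraries, a quasi-likelihood test of AAV-CNTF against AAV-null after crush with 12 residual degrees of freedom, and Benjamini-Hochberg adjustment over 14194 genes at 0.05. At these depths counting error is small beside the biological coefficient of variation, 0.371. Intervals cover 95%. The fit was tested on simulated data with 50 genes changed at each size. It recovered 66% of them at a log2 fold change of 1 and 98% at 3, with 9 false calls. More genes were changed there than passed in the comparison, so these rates need not hold for it. The 36 gene lists and the members were chosen with earlier results of these data known, and lists share some genes. Genes named are all past the threshold, the 15 next by p, up to 4 of each list past it or, where none passed, the 2 of lowest p and the most abundant in CPM, and Cntf, Cntfr, Lifr, Il6st, Stat3, Socs3 and Gfap. Some genes that this rule selects are not reported here. Any other member, chosen once values were known, is named without its value, Thy1 aside. Counts over members that reach the FPKM minimum with AAV-null too, and the T cell sum without Thy1, were added after seeing the data. GENCODE M21 gave positions and holds 14172 tested identifiers. Alternatives were other normalizations, filters and tests (DESeq2 1.42.0, limma 3.58.1), a block, a covariate and libraries left out.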

Additional observations from a re-analysis of the deposited data

Results flagged for a closer look

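In 160 sets of 5 crush libraries, for 80 genes in each of the 2 groups, 14 had a single library farther from its neighbours than Dixon's criterion allows at 95%. Chance meets that criterion in about 1 of 20 sets of independent, normally distributed values. CPM values of genes that vary together are not of that kind, so the rate is no yardstick for the 14. Of these 11 were AAV-CNTF replicate 4, each time the highest of its group, at 155 CPM for H2-Q7, 648 for Cxcl9, 70.5 for H2-Q6, 96.7 for Dtx3l, 248.6 for Stat3, 220.5 for Oasl2, 444 for Iigp1, 567 for Gbp2, 294 for Cxcl10, 160.2 for Tap1 and 39.1 for Ly6c2. AAV-CNTF replicate 5 stood apart for Emcn, at 27.2 CPM. In the AAV-null group replicate 5 was the one library with counts of Lck, at 0.361 CPM, and replicate 3 the one with counts of Xcr1, at 1.78 CPM. With every other library of the group at 0, any count would have met the criterion there.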

How the results depend on the processing

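The 8 genes past the threshold became 83 with DESeq2 (59 higher, 24 lower), 5 with limma-voom and sample weights, 1 with only the 10 crush libraries, 29 with the skeletal muscle level as a covariate and 2 without AAV-null replicate 6 and AAV-CNTF replicate 4 together. Leaving out 1 library at a time gave 1 to 41. With the replicate block the count was 16. Same-numbered libraries are not stated to share an animal, litter or day, so the main fit has no block. Same-numbered crush libraries deviated from their group means with correlations of 0.00524 to 0.113, under 0.1 in 4 of the 5 pairs. Of the 5, 3 were best with their own number. Whether libraries of a number share an effect was not tested. Plvap passed in all 26 alternatives, and the other 7 passed in 11 to 20 of them. Gfap and Cntf, whose changes were near 0, took the opposite sign: Gfap with RLE (-0.0027), upper quartile (-0.0199), DESeq2 (-0.0028), limma-voom (-0.026) and both libraries left out (-0.058). With single libraries left out Gfap ran from -0.0726 to 0.0357 and Cntf from -0.189 to 0.404. Causes were not tested, beyond fewer libraries or degrees of freedom where libraries were left out.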

Other observations

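One sham library stood out for the interferon genes, outside the comparison of the crush groups. Sham replicate 3 held 103 CPM of Cxcl10, 113 of Oasl2 and 39.96 of Iigp1, where the other 4 sham libraries held 5.54 to 18.3, 29.8 to 77.7 and 2.21 to 11.6 CPM. Its type I interferon list lay 1.47 above the mean of the crush AAV-null libraries in mean log2 CPM, beside 1.80 for AAV-CNTF replicate 4.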
